A study of Mus musculus with 8 samples.

Results

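Whole kidney RNA of Tet1 knockout mice without kidney injury (KO-NI) was set against that of wild-type mice without kidney injury (WT-NI), in the 4 of 8 libraries whose labels give the treatment as non-injury. There were 2 KO-NI libraries and 2 WT-NI libraries, called KO-NI 1, KO-NI 2, WT-NI 1 and WT-NI 2 after the labels. The 4 other libraries came from kidneys of both genotypes 3 days after 45 min of ischemia (KO-I/R 3D for the knockout, WT-I/R 3D for WT). They entered the gene filter and the estimate of spread in the tests, and their levels are given where stated. All mice were females of a C57BL/6 x 129S4/SvJae cross. Tet1 knockout mice carried the germline allele Tet1tm1.1Jae, so the gene was altered in every cell type, and WT mice were littermates. Each library was made from pooled RNA of 3 mice, so 2 libraries stand for 6 mice and p-values measure the spread between pools. Unilateral clamping leaves an unclamped kidney in the operated mouse, and which of these, such kidneys or those of unoperated mice, gave the non-injured RNA is unstated.

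TET1, TET2 and TET3 are enzymes that oxidize 5-methylcytosine in DNA to 5-hydroxymethylcytosine and further forms, a route by which methylation of promoters and enhancers can be lost. TET proteins also bind chromatin factors independently of this activity. The uninjured kidney consists mostly of tubule cells that rarely divide and burn fatty acids, with small numbers of resident macrophages and other immune cells. The question asked of these libraries was which genes differ between the genotypes before any injury.

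The libraries held 13961281 (KO-NI 1), 15637521 (KO-NI 2), 16223923 (WT-NI 1) and 15908001 (WT-NI 2) reads on genes. KO-NI 1 stood apart from the other 3. It differed more than 2-fold from KO-NI 2 in 1804 genes and from the WT-NI libraries in 1734 and 1963, whereas KO-NI 2 differed from them in 882 and 872 genes and the WT-NI libraries from each other in 760. Mitochondrial genes took 10.9% of reads in KO-NI 1 and 7.44% to 7.70% in the other 3. Levels are therefore given for each KO-NI library, and so are most list medians. Tet1 itself was listed at 0.551 and 0.382 FPKM in KO-NI and at 0.378 and 0.323 FPKM in WT-NI, from 96, 81, 84 and 70 reads. FPKM are reads scaled by gene length and by a depth value for each library. That depth value was 0.808 of the reads on genes in KO-NI 1 and 0.878 to 0.886 of them in the other non-injured libraries. It was therefore not the plain total of those reads. The Tet1 value covers the whole gene and does not check whether the targeted part was lost. Kdm5d, Eif2s3y, Uty and Ddx3y of the Y chromosome were at 0 reads in all 8 libraries, and Xist, the RNA that silences an X chromosome in females, was at 52.7 and 43.8 FPKM in KO-NI and 40.4 and 36 FPKM in WT-NI. Of the proximal tubule markers, 24 of 24 passed the filter, and Slc34a1, the phosphate transporter of that segment, was at 1077 and 1458 FPKM in KO-NI and 1468 and 1538 FPKM in WT-NI.

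No gene passed the test between KO-NI and WT-NI. Values were tested as log2(FPKM + 0.1) with limma in the 15650 genes that reached 1 FPKM in 2 or more libraries. A call needed a log2 fold change beyond 0.5 in either direction and an adjusted p below 0.05. By this rule 0 genes were called higher (0%) and 0 lower (0%). The lowest adjusted p of any gene, that of Gm11084, was 0.0541. This fit held all 8 libraries, so the injured ones also set the spread. With only the non-injured libraries in the limma fit, 0 genes were called and the lowest adjusted p was 0.332. At an unadjusted p under 0.05, 351 genes were higher (2.24% of genes) and 525 lower (3.35%). With limma voom on the recovered reads, 1 gene was called, Col5a2. A count that needs no model was that of genes whose libraries did not overlap. Both KO-NI libraries lay above both WT-NI libraries for 2763 genes (17.7%) and below both for 2698 (17.2%). With a log2 fold change over 0.5 as well, 663 genes lay above (4.24%) and 870 below (5.56%). These percentages are the background for the counts that follow, and "higher" and "lower" below describe values that did not pass the test unless an adjusted p is given.

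Among protein-coding genes with a mean of at least 5 FPKM in the higher group, the 8 with the widest gap below WT-NI were Col5a2, Trf, Tm6sf2, Plekhb1, Plbd1, Sectm1b, Hdc and Kcnk5. Col5a2, which encodes a chain of type V collagen, was at 2.80 and 2.67 FPKM in KO-NI and 9.51 and 8.10 FPKM in WT-NI. The 2 KO-NI values were nearly equal and the groups were far apart, at a log2 fold change of -1.65 (SE 0.14, limma adjusted p = 0.0662). With limma voom it was called, at -1.67 (SE 0.16, adjusted p = 0.0147). That fit also held the injured libraries. With limma voom on the non-injured libraries alone, 0 genes were called and the smallest adjusted p of any gene was 0.595. Trf, the gene of the plasma iron carrier transferrin, was at 6.65 and 5.33 FPKM in KO-NI and 18.2 and 21.5 FPKM in WT-NI, a log2 fold change of -1.71 (SE 0.19, limma adjusted p = 0.198). Both genes had more than 240 reads in every library.

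Tm6sf2, whose product acts in lipid export from liver and gut, was at 4.15 and 4.64 FPKM in KO-NI and 9.73 and 9.35 FPKM in WT-NI. Plekhb1, a membrane-associated pleckstrin homology domain protein, was at 3.37 and 2.26 FPKM in KO-NI and 8.47 and 6.75 FPKM in WT-NI. Hdc, the enzyme that makes histamine, was at 3.32 and 2.45 FPKM in KO-NI and 9.99 and 5.72 FPKM in WT-NI. In all of these the KO-NI libraries lay below both WT-NI libraries, and for Hdc the WT-NI libraries also differed widely from each other. Kcnk5, a background potassium channel of the proximal tubule, was at 32.3 and 46.5 FPKM in KO-NI and 73.9 and 75.6 FPKM in WT-NI. Sectm1b was at 10.8 and 12.9 FPKM in KO-NI and 22.1 and 24.0 FPKM in WT-NI, and Plbd1 at 4.24 and 3.51 FPKM in KO-NI and 7.37 and 7.40 FPKM in WT-NI. The limma adjusted p-values of these genes ran from 0.281 for Tm6sf2 to 0.688 for Kcnk5, Hdc and Sectm1b.

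On the other side, the genes with the widest gaps included Gm11084, Gm6020, Ces1g, Serpina1d, Zbtb16, Rps18-ps5 and D030056L22Rik. Gm11084, a predicted gene, had 6 reads in each KO-NI library (7.71 and 6.34 FPKM) and 0 in each WT-NI library, which is at least 2.29-fold higher against a floor of 3 reads per WT-NI library. It also had 2 and 1 reads in the injured WT libraries, so the gene was not absent from that genotype. Gm6020 rested on 8 and 6 reads in KO-NI and 2 and 1 reads in WT-NI. These predicted genes lead the ranking on few reads.

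Zbtb16, a transcription factor that glucocorticoids induce, was at 6.76 and 9.54 FPKM in KO-NI and 1.86 and 3.73 FPKM in WT-NI. Ces1g, a carboxylesterase, was at 4.75 and 6.32 FPKM in KO-NI and 1.49 and 2.09 FPKM in WT-NI. Serpina1d, one of the near-identical alpha-1-antitrypsin genes among which reads may be split, was at 56.4 and 45.4 FPKM in KO-NI and 24.2 and 24.9 FPKM in WT-NI. Rps18-ps5, whose name marks it as a copy of Rps18 and whose reads may be shared with it, was at 13.7 and 15.4 FPKM in KO-NI and 5.50 and 8.0 FPKM in WT-NI.

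**Figure D1:**
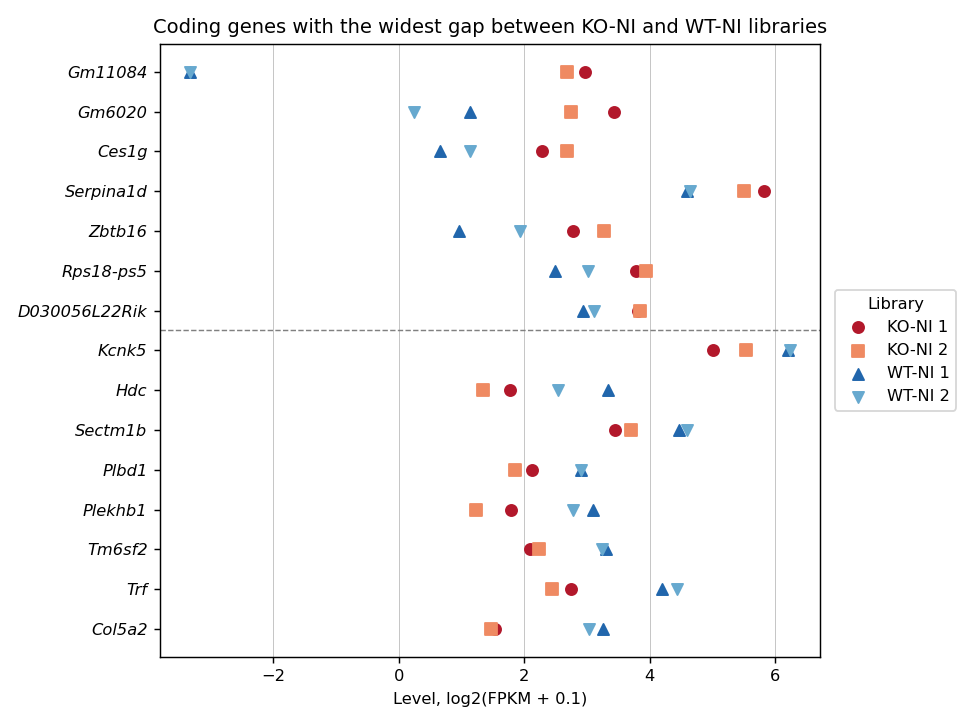
Levels of 15 of the protein-coding genes with the widest gaps between the 2 KO-NI and the 2 WT-NI libraries, on a log2(FPKM + 0.1) axis, 1 point per library, with genes higher in KO-NI above the dashed line and lower ones under it. The KO-NI points of Col5a2 lie together at 2.80 and 2.67 FPKM, left of the WT-NI points at 9.51 and 8.10 FPKM, and Gm11084 is listed at 0 in both WT-NI libraries.

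Genes of antigen presentation were lower in both KO-NI libraries. MHC class I molecules present peptides from inside the cell and MHC class II molecules present ingested protein to helper T cells, with proteasome subunits, the TAP transporter and the class II chaperones in support. All 21 listed genes were tested and 0 were called, 21 had a fold change below 0, and 20 had both KO-NI libraries below both WT-NI libraries, beside 17.2% of all genes. The median log2 fold change was -0.52, with -0.66 for KO-NI 1 and -0.39 for KO-NI 2, beside 0.00 over all genes. The exception was H2-Q7, at 1.04 and 2.65 FPKM in KO-NI and 1.96 and 1.97 FPKM in WT-NI, a gene with near-identical neighbours.

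Of the class I genes, H2-K1 was at 97.7 and 111 FPKM in KO-NI and 137 and 155 FPKM in WT-NI, and H2-D1 at 88.8 and 118 FPKM in KO-NI and 145 and 166 FPKM in WT-NI. B2m, the light chain that all class I molecules share, was at 359 and 317 FPKM in KO-NI and 370 and 386 FPKM in WT-NI, a log2 fold change of -0.16 (SE 0.14, limma adjusted p = 0.701). In these values the heavy chains thus lay further below WT-NI than their light chain. The values include the GC and length trend of KO-NI 1 described below. Of the supporting genes, Tap2 was at 4.90 and 4.91 FPKM in KO-NI and 6.88 and 8.38 FPKM in WT-NI, at -0.62 (SE 0.18, limma adjusted p = 0.688). The immunoproteasome genes Psmb8, Psmb9 and Psmb10 had log2 fold changes of -0.61, -0.49 and -0.51.

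Of the class II genes, H2-Ab1 was at 29.6 and 30.0 FPKM in KO-NI and 42.1 and 51.8 FPKM in WT-NI, and H2-Eb1 at 39.0 and 41.3 FPKM in KO-NI and 58.6 and 62.4 FPKM in WT-NI. Cd74, the invariant chain that guides class II molecules, was at 107 and 115 FPKM in KO-NI and 156 and 170 FPKM in WT-NI. Ciita, the transactivator of class II genes, was at 0.707 and 0.550 FPKM in KO-NI and 1.14 and 0.951 FPKM in WT-NI, and Nlrc5, the transactivator of class I genes, at 1.41 and 1.20 FPKM in KO-NI and 1.52 and 1.57 FPKM in WT-NI. In each of these 5 genes the groups did not overlap and the limma adjusted p was 0.688 to 0.689.

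Interferon-stimulated genes, which interferons switch on through STAT and IRF factors, were mostly lower in KO-NI 2 and less evenly so in KO-NI 1. Of 34 listed genes 33 were tested, 0 were called, 15 lay below both WT-NI libraries in both KO-NI libraries and 2 above. The median was -0.22, with -0.09 for KO-NI 1 and -0.32 for KO-NI 2. KO-NI 2 was below both WT-NI libraries in 27 genes and KO-NI 1 in 16, beside 5197 and 6644 of all 15650 genes. Isg15, a ubiquitin-like protein, was at 5.30 and 5.29 FPKM in KO-NI and 8.31 and 10.1 FPKM in WT-NI, at -0.78 (SE 0.15, limma adjusted p = 0.672). Irf7, which amplifies interferon production, was at 4.53 and 5.63 FPKM in KO-NI and 7.24 and 9.32 FPKM in WT-NI. Trim30a went the other way, at 3.21 and 2.85 FPKM in KO-NI and 2.17 and 2.27 FPKM in WT-NI.

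Sequences 250 bases before to 50 bases after the start site (RefSeq, GRCm38.p6) are shown for 4 promoters, first for an interferon-stimulated gene and a class I gene that lay near WT-NI. Capitals mark GAAANNGAAA, the core of the interferon response element, and CCAAT, the binding site of NF-Y, on either strand, and overlapping copies run together. Isg15 (chr4:156200769-156201068, minus strand) holds 3 such cores and B2m (chr2:122147437-122147736, plus strand) holds 1, with 1 CCAAT box.
Isg15: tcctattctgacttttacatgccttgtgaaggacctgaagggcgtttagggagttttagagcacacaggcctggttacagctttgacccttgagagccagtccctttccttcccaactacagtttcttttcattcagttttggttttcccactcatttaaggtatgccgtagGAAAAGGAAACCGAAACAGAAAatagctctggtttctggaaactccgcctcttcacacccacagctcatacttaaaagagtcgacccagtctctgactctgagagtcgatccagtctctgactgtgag
B2m: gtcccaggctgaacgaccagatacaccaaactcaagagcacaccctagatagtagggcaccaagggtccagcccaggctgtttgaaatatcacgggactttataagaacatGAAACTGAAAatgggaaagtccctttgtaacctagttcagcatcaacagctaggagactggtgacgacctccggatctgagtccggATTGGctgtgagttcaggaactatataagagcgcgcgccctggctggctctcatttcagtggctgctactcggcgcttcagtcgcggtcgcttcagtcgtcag
GAAANNGAAA was found in the promoters of 17 of the 24 listed interferon-stimulated genes that have one in the table and of 2 of 16 antigen presentation genes, beside 3.99% of all 27025 genes. CCAAT was found for 14 of the 16 antigen presentation genes, beside 41.1% of all genes. A match is a description of the letters in this window.

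Some markers of immune cells were lower as well. The macrophage and monocyte list, with 16 of 16 genes tested, had 8 genes below and 3 above both WT-NI libraries in both KO-NI libraries and a median of -0.26, with -0.34 for KO-NI 1 and -0.30 for KO-NI 2. Its summed level was 202 and 220 FPKM in KO-NI and 280 and 310 FPKM in WT-NI, most of it from Cd74, which is also in the antigen presentation list. Cd68, a lysosomal macrophage protein, was at 2.61 and 2.14 FPKM in KO-NI and 4.15 and 3.41 FPKM in WT-NI, and C1qa, a complement chain made by macrophages, at 9.98 and 17.3 FPKM in KO-NI and 21.6 and 27.2 FPKM in WT-NI. Csf1r, the receptor for the main macrophage growth factor, was at 18.3 and 14.4 FPKM in KO-NI and 17.1 and 15.1 FPKM in WT-NI, and Adgre1 at 2.25 and 1.91 FPKM in KO-NI and 2.00 and 2.87 FPKM in WT-NI, so these defining markers overlapped. In bulk tissue, fewer cells of a type and less RNA per cell cannot be told apart. The part of immune cell numbers in the lower antigen presentation values was not tested.

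Of 10 T and NK cell markers 8 were tested, with 3 below and 0 above both WT-NI libraries. Nkg7, a granule protein of NK and cytotoxic T cells, was at 0.485 and 0.478 FPKM in KO-NI and 1.37 and 1.56 FPKM in WT-NI, at -1.43 (SE 0.20, limma adjusted p = 0.281). The T cell receptor subunits Cd3d, Cd3g and Cd3e were all under 0.3 FPKM in the 4 libraries. Of 29 chemokine genes 26 were tested, with 10 below and 4 above both WT-NI libraries and a median of -0.11 (-0.08 for each KO-NI library). Ccl4, which attracts monocytes and T cells, was at 0 and 0.110 FPKM in KO-NI and 1.90 and 1.51 FPKM in WT-NI (log2 fold change -3.63, SE 0.44, limma adjusted p = 0.199). It had 0 and 1 reads in KO-NI and 18 and 14 in WT-NI, so its fold change depends on the 0.1 added to the FPKM. Ccl5 was at 0.831 and 1.06 FPKM in KO-NI and 1.52 and 2.08 FPKM in WT-NI. Ackr3, a scavenger receptor for Cxcl12, was on the other side at 16.5 and 15.4 FPKM in KO-NI and 12.7 and 12.6 FPKM in WT-NI.

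Genes of mitosis were higher in KO-NI, from low levels. Of 44 listed genes 43 were tested, 0 were called, 30 lay above both WT-NI libraries in both KO-NI libraries and 2 below, beside 17.7% of all genes above. The median log2 fold change was 0.62, with 0.46 for KO-NI 1 and 0.73 for KO-NI 2, and it was 0.29 with a pseudocount of 1, since most of these genes lie under 3 FPKM. Ect2, which directs the closing of the cleavage furrow, was at 3.52 and 3.41 FPKM in KO-NI and 1.86 and 1.59 FPKM in WT-NI, at 0.97 (SE 0.20, limma adjusted p = 0.672). Anln, the furrow protein anillin, was at 0.714 and 0.828 FPKM in KO-NI and 0.322 and 0.315 FPKM in WT-NI. Melk, a kinase of dividing cells, was at 0.507 and 0.539 FPKM in KO-NI and 0.211 and 0.144 FPKM in WT-NI. In these 3 genes both KO-NI values were about equal and clear of WT-NI.

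Top2a, the topoisomerase that untangles replicated chromosomes, was at 1.45 and 1.61 FPKM in KO-NI and 0.602 and 0.950 FPKM in WT-NI. Cdk1, the kinase that starts mitosis, was at 0.827 and 0.930 FPKM in KO-NI and 0.423 and 0.535 FPKM in WT-NI, and its partner Ccnb1 at 0.652 and 0.466 FPKM in KO-NI and 0.231 and 0.305 FPKM in WT-NI. Mki67, the common marker of dividing cells, was at 1.07 and 1.72 FPKM in KO-NI and 0.657 and 1.09 FPKM in WT-NI and overlapped. The members that lay below were Pttg1, at 15.1 and 19.8 FPKM in KO-NI and 20.4 and 23.8 FPKM in WT-NI, and Cks2, at 24.7 and 24.4 FPKM in KO-NI and 26.5 and 26.6 FPKM in WT-NI, which with Spc25 were the members of highest level.

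The promoters of Cdk1 (chr10:69352863-69353162, minus strand) and Ccnb1 (chr13:100786437-100786736, minus strand) are shown because cell cycle promoters carry known elements. Capitals mark TTTGAA, the cell cycle genes homology region bound by DREAM complexes, and CCAAT, on either strand, with no overlap between them.
Cdk1: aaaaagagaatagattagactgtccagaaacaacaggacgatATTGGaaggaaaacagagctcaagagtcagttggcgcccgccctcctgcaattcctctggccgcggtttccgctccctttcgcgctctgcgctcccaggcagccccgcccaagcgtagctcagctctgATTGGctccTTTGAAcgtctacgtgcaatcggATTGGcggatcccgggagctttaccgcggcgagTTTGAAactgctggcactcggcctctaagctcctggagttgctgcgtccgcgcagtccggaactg
Ccnb1: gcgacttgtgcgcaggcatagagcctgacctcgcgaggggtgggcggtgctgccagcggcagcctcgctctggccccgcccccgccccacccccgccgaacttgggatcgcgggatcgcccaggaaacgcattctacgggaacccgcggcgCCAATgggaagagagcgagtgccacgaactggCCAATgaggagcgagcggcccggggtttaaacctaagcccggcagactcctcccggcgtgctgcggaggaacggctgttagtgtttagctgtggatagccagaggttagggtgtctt
TTTGAA was found for 27 of the 38 mitosis genes with a promoter in the table, beside 20.2% of all genes, and CCAAT for 29 of 38, beside 41.1%. Cdk1 holds 2 copies of TTTGAA and 3 of CCAAT, and Ccnb1 holds 0 and 2.

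Of 25 DNA replication genes, all tested, 8 lay above and 1 below both WT-NI libraries, with a median of 0.31, of 0.05 for KO-NI 1 and of 0.31 for KO-NI 2. Pcna, the sliding clamp of DNA polymerase, was at 19 and 19.2 FPKM in KO-NI and 15.1 and 16.0 FPKM in WT-NI, and Mcm6, a subunit of the replicative helicase, at 8.02 and 7.62 FPKM in KO-NI and 6.34 and 6.03 FPKM in WT-NI. Uhrf1, which brings maintenance methylation to new DNA, was at 1.83 and 2.65 FPKM in KO-NI and 1.13 and 1.06 FPKM in WT-NI, at 0.95 (SE 0.31, limma adjusted p = 0.688).

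**Figure D2:**
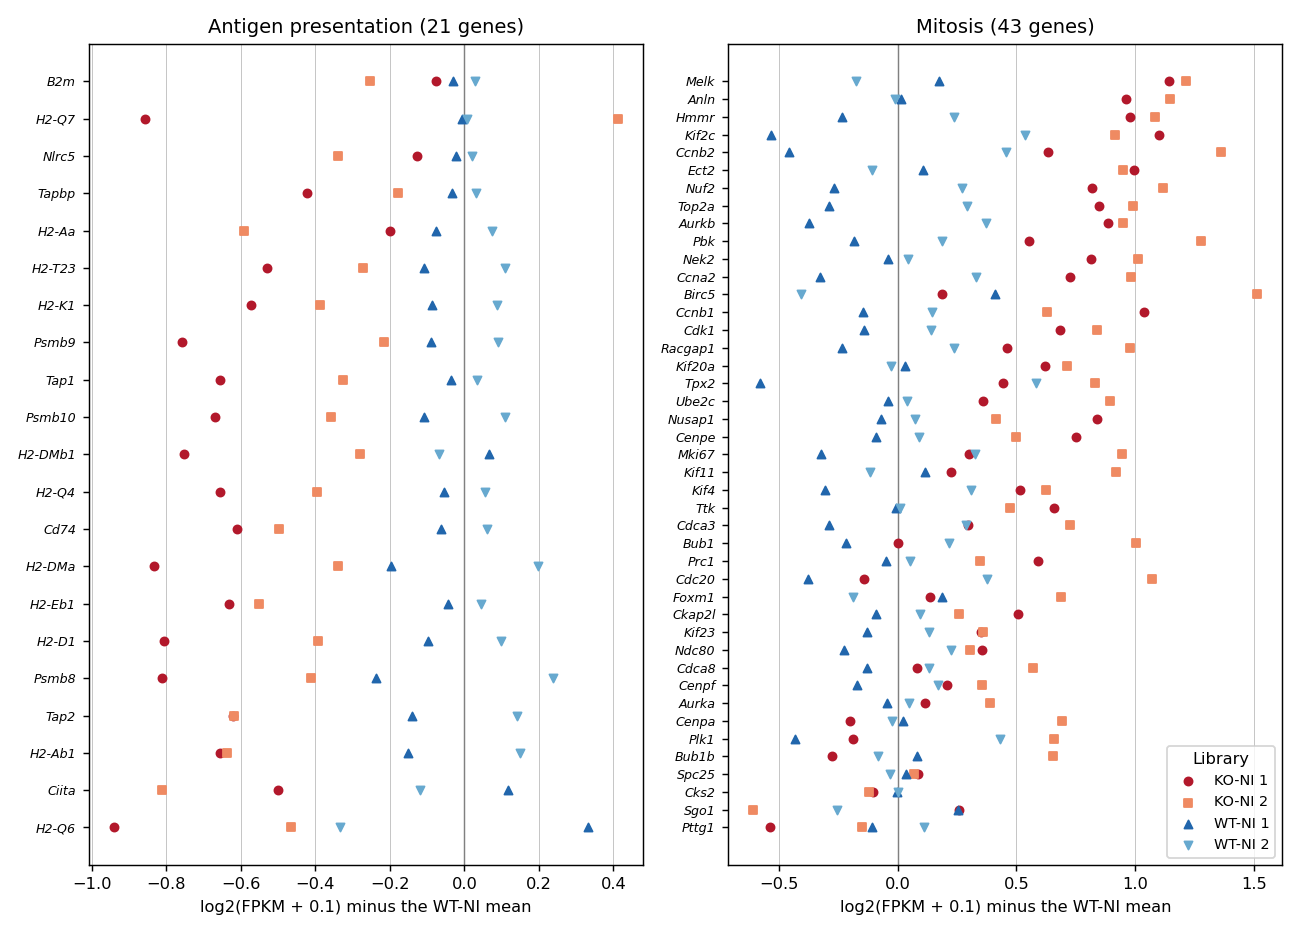
Each point is 1 library's log2(FPKM + 0.1) minus the mean of the 2 WT-NI libraries, for the 21 antigen presentation genes (left) and the 43 mitosis genes tested (right). Circles and squares of the KO-NI libraries lie left of the triangles of WT-NI for 20 of the 21 antigen presentation genes and right of them for 30 of the 43 mitosis genes.

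Medians of the metabolic lists lay close to WT-NI. Of 27 fatty acid oxidation genes and PPARA targets, all tested, 12 lay above and 1 below both WT-NI libraries. The shares over all genes were 17.7% and 17.2%. With the GC and length trend described below removed, 44.4% lay above and 3.7% below, beside 20.5% and 16% of all genes. Members thus lay above more often, by small distances. The median was 0.13, with 0.04 for KO-NI 1 and 0.11 for KO-NI 2. Cpt2, which re-forms acyl-CoA inside mitochondria, was at 110 and 97.7 FPKM in KO-NI and 87.2 and 81.3 FPKM in WT-NI. Cyp4a12a, a fatty acid hydroxylase, was at 1.39 and 2.59 FPKM in KO-NI and 0.373 and 0.678 FPKM in WT-NI, at 1.72 (SE 0.36, limma adjusted p = 0.688). The gene has close relatives among which reads may be split.

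Cholesterol synthesis genes were divided. Of 20 tested of 21, 6 lay above and 4 below both WT-NI libraries, with a median of -0.02 (0.05 for KO-NI 1 and -0.02 for KO-NI 2). Hmgcs1, an early enzyme of the pathway, was at 101 and 88.0 FPKM in KO-NI and 72.6 and 69.8 FPKM in WT-NI, and Sqle, which makes squalene epoxide, at 17.0 and 14.9 FPKM in KO-NI and 13.0 and 11.6 FPKM in WT-NI. Mvk, the mevalonate kinase of the same pathway, was at 4.71 and 5.12 FPKM in KO-NI and 6.58 and 6.22 FPKM in WT-NI. All of these had a limma adjusted p of 0.688.

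Of 19 endoplasmic reticulum stress and ATF4 genes tested of 20, 7 lay above and 0 below, with a median of 0.25 (0.22 for KO-NI 1 and 0.16 for KO-NI 2). Hspa5, the chaperone BiP, was at 178 and 131 FPKM in KO-NI and 102 and 121 FPKM in WT-NI. Of 16 immediate early genes tested of 19, 5 lay below and 0 above, and the median of -0.50 was unevenly shared, at -0.88 for KO-NI 1 and -0.11 for KO-NI 2. Atf3 was the most even member, at 0.412 and 0.474 FPKM in KO-NI and 0.872 and 1.03 FPKM in WT-NI. Nr4a1 varied as much within groups, at 1.36 and 4.44 FPKM in KO-NI and 4.10 and 10.4 FPKM in WT-NI.

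Medians of the kidney cell type lists lay mostly near WT-NI in KO-NI 2 and further from it in KO-NI 1. The proximal tubule list had a median of 0.07 (0.04 for KO-NI 1 and 0.00 for KO-NI 2), with 4 of 24 genes above and 3 below both WT-NI libraries. The medians in KO-NI 1 and KO-NI 2 were 0.17 and 0.07 for the thick ascending limb, 0.13 and 0.02 for principal cells, -0.24 and -0.04 for podocytes and 0.12 and -0.03 for endothelial cells. Intercalated cells, which move acid and base, had -0.11 and -0.13, with 5 of 12 markers below both WT-NI libraries and 1 above. Larger medians lay mostly in KO-NI 1 for the distal convoluted and connecting tubule (0.35 and -0.03) and for medullary osmolyte genes (0.53 and 0.06), whereas urothelial markers had 0.97 and 0.61. Slc13a3, a dicarboxylate transporter of the proximal tubule, was at 203 and 201 FPKM in KO-NI and 249 and 233 FPKM in WT-NI.

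**Figure D3:**
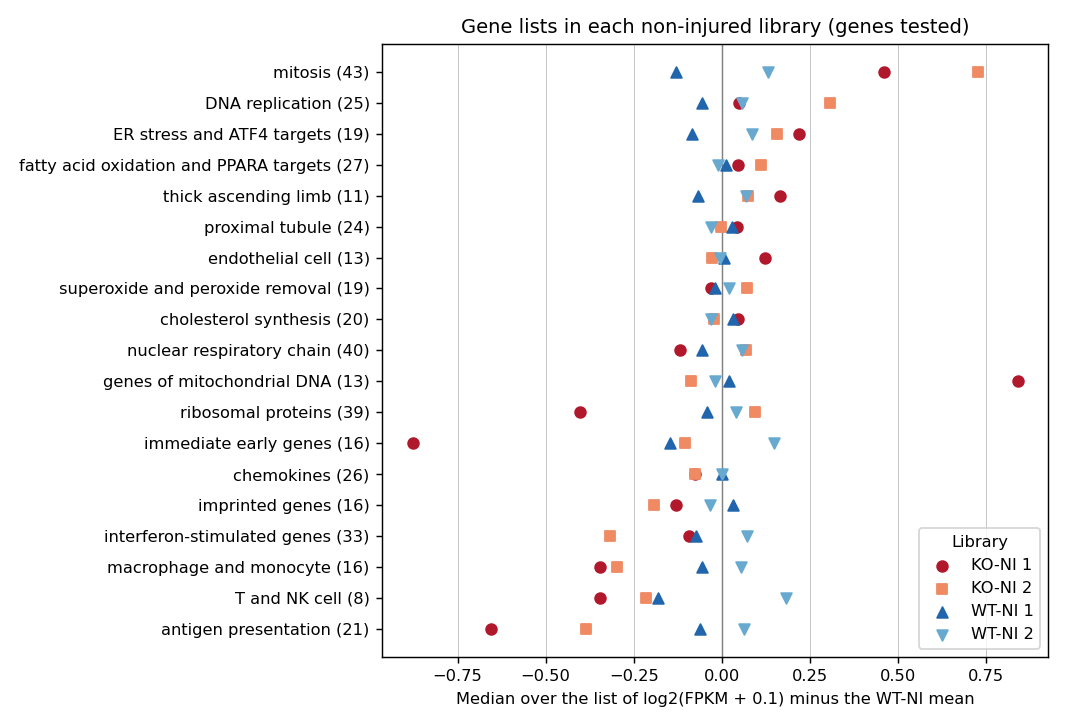
Median over each gene list of log2(FPKM + 0.1) minus the WT-NI mean, 1 point per non-injured library, with the number of genes tested in parentheses. Antigen presentation (-0.66 and -0.39 in KO-NI) and mitosis (0.46 and 0.73 in KO-NI) have both KO-NI points outside both WT-NI points, whereas genes of mitochondrial DNA, ribosomal proteins and immediate early genes are displaced in KO-NI 1 and near WT-NI in KO-NI 2.

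Set against WT-NI on its own, KO-NI 1 had 768 genes called higher (4.91%) and 1440 lower (9.2%), and KO-NI 2 had 0 called higher (0%) and 0 lower (0%). Each came from a separate limma fit with 7 libraries that left out the other KO-NI library. The lone library is assumed there to vary like the others. At an unadjusted p under 0.05 and a log2 fold change over 0.5, KO-NI 2 had 231 genes higher and 334 lower, and voom called 1 gene lower, Col5a2. Of the 2208 genes called in KO-NI 1, KO-NI 2 lay on the same side of the WT-NI mean for 58.2% and on the same side of both WT-NI libraries for 42.8%. Since both comparisons use the same WT-NI libraries, these shares are descriptions only. The calls also rested on each WT-NI library: 33 were called higher and 197 lower when WT-NI 1 was left out, and 6 and 73 when WT-NI 2 was. With only the non-injured libraries in the fit, 0 were called in either direction.

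The differences of KO-NI 1 followed GC content and length. Over protein-coding genes, the median log2 difference from the WT-NI mean was 0.55 in genes under 40% GC (670 genes) and -0.71 in genes of 60% or more (534 genes). In KO-NI 2 these medians were -0.003 and -0.007, and between the WT-NI libraries 0.08 and -0.09. Of the genes under 40% GC 29.0% were called higher in KO-NI 1 and 0.597% lower, and of those of 60% or more 0.187% were called higher and 44.9% lower. By length, the median in KO-NI 1 was -0.46 in genes of 500 to 1000 bases (272 genes) and 0.25 in genes of 8000 bases or more (2135 genes), against 0.03 and 0.00 in KO-NI 2. Once a smooth dependence on GC and transcript length had been subtracted from every library, 214 genes were called higher in KO-NI 1 (1.41%) and 348 lower (2.3%) of 15143.

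**Figure D4:**
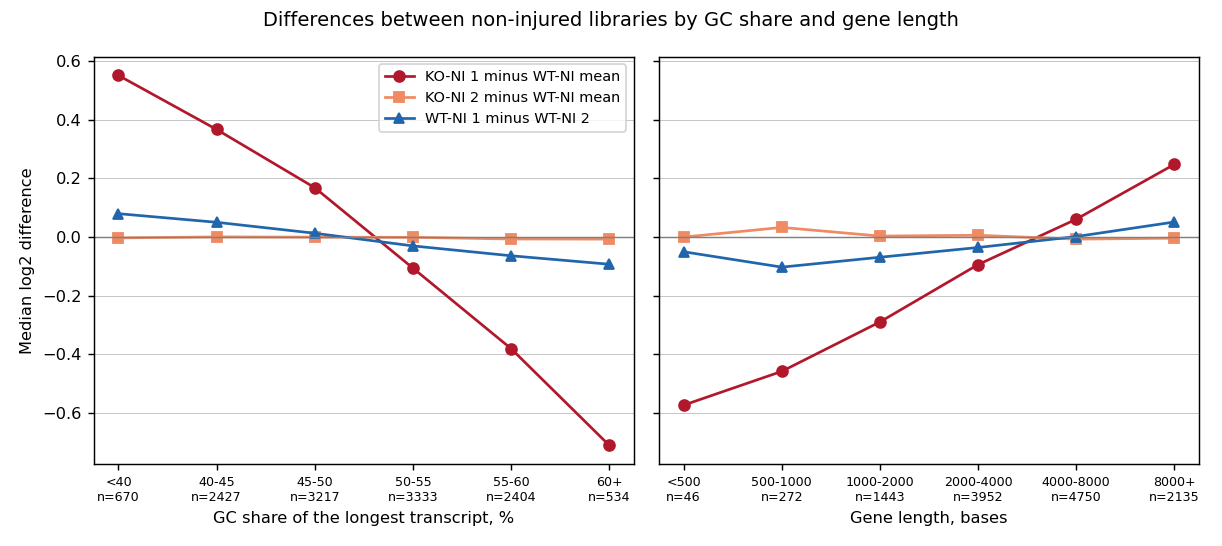
Median log2 difference between non-injured libraries in bins of GC share (left) and of gene length (right), over protein-coding genes, with the number of genes under each bin. KO-NI 1 is lower in each bin of higher GC, with 0.55 in the lowest bin and -0.71 in the highest, and higher in each bin of greater length, while KO-NI 2 stays within 0.04 of WT-NI in every bin.

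Short transcripts made up the extremes of KO-NI 1. Far below the other 3 libraries lay the microRNA genes Mir7052 and Mir7085 and the pseudogene Gm3362, each at 0 reads in KO-NI 1, and the pseudogene Gm10335, with 1 read in KO-NI 1 and 59 in KO-NI 2, against 38 and 41 in WT-NI. Above them lay mt-Nd3, a short subunit gene of respiratory complex I in mitochondrial DNA, at 814 FPKM in KO-NI 1 and 138 FPKM in KO-NI 2, against 124 and 130 FPKM in WT-NI, and the copies of mitochondrial sequence Gm13339 and Gm13341. Chosen after their values were seen, Atp5k, a small subunit of ATP synthase, was at 10.2 FPKM in KO-NI 1 and 182 FPKM in KO-NI 2, against 161 and 195 FPKM in WT-NI, and Tmsb10, thymosin beta-10, at 1.04 and 16.7 FPKM in KO-NI and 19 and 23.4 FPKM in WT-NI. In both genes KO-NI 2 lay close to WT-NI and KO-NI 1 far below.

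Lists of short or mitochondrial genes were split the same way. The 13 genes of mitochondrial DNA had a median of 0.84 in KO-NI 1 and -0.09 in KO-NI 2. The 39 ribosomal protein genes had medians of -0.40 and 0.10, with 9 called lower in KO-NI 1 and 0 higher, and their members diverged within KO-NI 1. With the GC and length trend removed these medians were -0.09 and 0.11, and 15 of the 39 genes lay above both WT-NI libraries and 0 below. Rps28 was at 3.77 FPKM in KO-NI 1 and 48.5 FPKM in KO-NI 2, against 43.0 and 56.3 FPKM in WT-NI, while Rps6 was at 259 and 199 FPKM in KO-NI and 179 and 188 FPKM in WT-NI. The 40 tested genes of the nuclear respiratory chain had 7 called lower in KO-NI 1, among them Ndufb8, at 29.9 FPKM in KO-NI 1 and 59.7 FPKM in KO-NI 2, against 55.9 and 64.4 FPKM in WT-NI. The direction of that list in KO-NI 1 turned with the trend removed, with a median of 0.18 in place of -0.12 and 21 of 40 genes of both KO-NI libraries above WT-NI and 0 below.

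Sod1, the cytosolic superoxide dismutase, was at 59.2 FPKM in KO-NI 1 and 117 FPKM in KO-NI 2, against 104 and 111 FPKM in WT-NI. The log2 fold change was -0.86 for KO-NI 1 (SE 0.13, limma adjusted p = 0.0178, and 0.0319 with the GC and length trend removed) and 0.12 for KO-NI 2, and -0.37 for both (SE 0.29, adjusted p = 0.690). Sod2, the mitochondrial form, was at 45.2 and 40.1 FPKM in KO-NI and 40.2 and 41.5 FPKM in WT-NI, and Cat, catalase, at 417 and 400 FPKM in KO-NI and 435 and 418 FPKM in WT-NI. Of 19 genes of superoxide and peroxide removal, 6 lay above and 5 below both WT-NI libraries, with a median of -0.05 (-0.03 for KO-NI 1 and 0.07 for KO-NI 2). With the trend removed the median was 0.12, with 9 above and 3 below.

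The antigen presentation and mitosis lists kept their direction with the GC and length trend removed. Antigen presentation had a median of -0.34, of -0.33 for KO-NI 1 and of -0.37 for KO-NI 2, with 19 of 21 genes below both WT-NI libraries, beside 16% of all genes. Single members changed more in KO-NI 1, where H2-Ab1 went from -0.66 to -0.05 and Cd74 from -0.61 to -0.09. H2-Eb1 went from -0.63 to -0.42, and B2m the other way, from -0.08 to -0.16. Mitosis had 0.52, 0.33 for KO-NI 1 and 0.73 for KO-NI 2, with 27 of 43 genes above, beside 20.5%. In KO-NI 1, Ect2 went from 0.99 to 0.56, Anln from 0.96 to 0.70 and Cdk1 from 0.69 to 0.57. Interferon-stimulated genes had -0.28, with 19 of 33 genes below. Immediate early genes had -0.44 for KO-NI 1 and -0.10 for KO-NI 2. Macrophage and monocyte markers had -0.14 for KO-NI 1 and -0.28 for KO-NI 2, with 5 of 16 genes below and 2 above. Intercalated cell markers had 0.09 for KO-NI 1 and -0.11 for KO-NI 2, with 3 of 12 genes below and 2 above. With this trend removed limma called 2 genes between KO-NI and WT-NI, Col5a2 at -1.70 and Gm11084, whose fitted fold depends on the pseudocount (adjusted p = 0.0296 each).

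Of the other TET genes, Tet2 was at 6.75 and 6.86 FPKM in KO-NI and 4.91 and 4.17 FPKM in WT-NI, at 0.58 (SE 0.26, limma adjusted p = 0.688), and Tet3 at 3.47 and 4.27 FPKM in KO-NI and 4.26 and 3.91 FPKM in WT-NI. The Tet2 groups did not overlap and those of Tet3 did. Tdg, the glycosylase that removes oxidized methylcytosine, was at 1.78 and 1.26 FPKM in KO-NI and 2.39 and 2.76 FPKM in WT-NI. Dnmt1 was at 4.17 and 5.38 FPKM in KO-NI and 5.85 and 4.75 FPKM in WT-NI, and Dnmt3a at 5.64 and 5.96 FPKM in KO-NI and 5.71 and 5.15 FPKM in WT-NI. Of the 12 tested genes of this list of 13, 4 lay above and 1 below both WT-NI libraries, with medians of 0.12 for KO-NI 1 and 0.06 for KO-NI 2. Of 12 germline genes known for methylated promoters only 1 passed the filter, and 6 of the others were at 0 in all 4 libraries.

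A targeted allele carries the chromosome around it from the strain of the targeted cells, so genes near Tet1 on chromosome 10 were counted. Distances came from the positions in the deposited table, whose gene starts were the same as those of a GRCm38 annotation for only 2.88% of 52083 shared genes, so they are approximate if the builds differ. Within 10 Mb, 93 genes were tested, 0 were called, and 18 lay above and 12 below both WT-NI libraries, which is 32.3% beside 34.9% of all genes. Within 5 and 20 Mb the shares were 30.0% of 60 genes and 30.0% of 303 genes. Of these neighbours Arid5b, a chromatin regulator, was at 5.50 and 5.50 FPKM in KO-NI and 4.25 and 4.36 FPKM in WT-NI. With the GC and length trend removed, its log2 difference in KO-NI 1 went from 0.35 to 0.10. Gm48072 and Gm16143, noncoding genes 0.27 and 0.25 Mb from Tet1, were at 3.36 and 2.94 FPKM in KO-NI against 1.41 and 1.08 FPKM in WT-NI, and at 0 and 0.813 FPKM in KO-NI against 1.55 and 1.86 FPKM in WT-NI. Gm48072 rested on 15 and 16 reads in KO-NI and 8 and 6 in WT-NI. Gm16143 rested on 0 and 6 reads in KO-NI and 12 and 14 in WT-NI. In both genes the injured groups overlapped.

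The injured libraries, which entered the comparison above only through the filter and the shared spread, give each gene's values under injury. Over both states together limma called 0 genes higher (0%) and 0 lower (0%), with 299 and 582 at an unadjusted p under 0.05 and a log2 fold change over 0.5, and voom called 1 higher and 8 lower. Those called with voom included Plekhb1, Sectm1b, Trf, Cyp4a12a, Hpd and Col5a2. A gene called over both states lies mostly on 1 side in both by that choice, but Col5a2 differed only without injury. Hpd, an enzyme of tyrosine breakdown, was at 63.1 and 84.7 FPKM in KO-NI and 104 and 118 FPKM in WT-NI. Plekhb1 was at 2.25 and 2.15 FPKM in KO-I/R 3D and 5.40 and 5.42 FPKM in WT-I/R 3D, with a voom log2 fold change over both states of -1.38 (SE 0.15, adjusted p = 0.0287). Cyp4a12a was at 5.87 and 6.68 FPKM in KO-I/R 3D and 0.633 and 0.740 FPKM in WT-I/R 3D, at 2.55 over both states (SE 0.29, voom adjusted p = 0.0287). Trf was at 15 and 20.5 FPKM in KO-I/R 3D and 24.4 and 24.7 FPKM in WT-I/R 3D, a smaller distance than without injury, at -1.10 over both states (SE 0.13, voom adjusted p = 0.0329).

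Several genes with the widest gaps without injury did not keep them. Col5a2 was at 7.94 and 9.37 FPKM in KO-I/R 3D and 8.27 and 8.58 FPKM in WT-I/R 3D, a log2 fold change of 0.03. Its call over both states, at -0.82 (SE 0.11, voom adjusted p = 0.0398), thus rests on the non-injured libraries. Ces1g, higher in KO-NI, was at 0.432 and 0.201 FPKM in KO-I/R 3D and 0.666 and 0.591 FPKM in WT-I/R 3D, at -0.86 beside 1.58 without injury. Kcnk5 had -0.08 beside -0.95, Plbd1 -0.04 beside -0.92 and Gm6020 -0.07 beside 2.40. Of the 663 genes above WT-NI by more than 0.5, 36.7% lay above WT in both injured KO libraries and 14.9% below, beside 28% and 29.5% of all genes. Of the 870 genes below, 29.2% lay below with injury and 18.0% above. Across the 15650 genes the fold changes of the 2 states had a Pearson correlation of 0.13, given as a description because genes are not independent.

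By list, mitosis lay above WT in both states, with medians of 0.65 and 0.52 in the KO-I/R 3D libraries. Antigen presentation, below WT-NI without injury, had medians of 0.09 and 0.39 in KO-I/R 3D against -0.15 and 0.15 among WT-I/R 3D libraries, which overlap. In the limma test of the difference between the genotype effects of the 2 states, 0 genes had an adjusted p under 0.05 (the smallest was 0.390), and 1567 had an unadjusted p under 0.05.

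**Figure D5:**
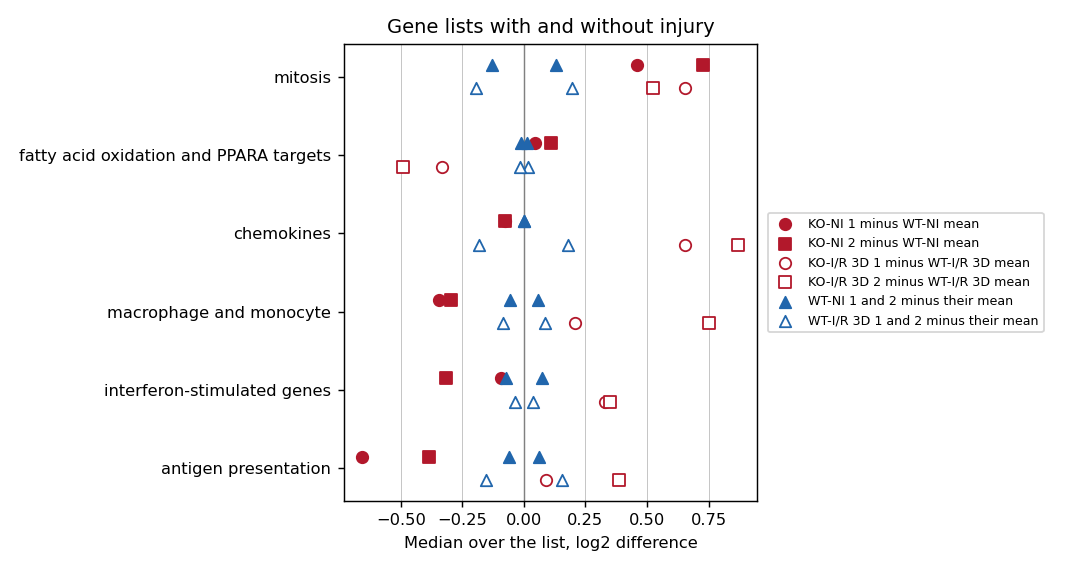
Median log2 difference from the WT mean of the same state over 6 gene lists, with filled symbols for non-injured and open symbols for injured libraries, circles and squares for the 2 KO libraries and triangles for the WT libraries. Mitosis is right of WT in both states, and antigen presentation is left of WT at -0.66 and -0.39 without injury but at 0.09 and 0.39 with it.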

How the data were processed

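Kidney RNA of 8 pools of 3 mice was sequenced as polyA mRNA with random-hexamer priming. HISAT2 2.0.5 and GRCm38.p6 are the aligner and build in the submitters' processing notes, and the counting program was not given in the sources used here. The deposited table holds FPKM per gene, which the authors computed from their read counts and gene lengths. All 55919 genes were read, and the 15650 with at least 1 FPKM in at least 2 of the 8 libraries were tested with limma 3.58.1 (R 4.3.3) on log2(FPKM + 0.1), with 4 group means and a variance trend. Benjamini-Hochberg adjustment covered all genes tested, and the thresholds were an adjusted p of 0.05 and an absolute log2 fold change of 0.5, those of the study. Fold changes on this scale understate those of low genes. FPKM times length gave whole reads for 100% of values within 0.001 reads, and these reads entered limma voom only (at least 10 reads in at least 2 libraries). Each KO-NI library was also fitted alone against WT-NI. Members, gene lists, tests and the gene ranking (widest gap between the groups, list members with the largest differences, extremes of each KO-NI library) were chosen with earlier results of these data known. Other genes of the lists that the text names (such as Mki67, Top2a, H2-K1, H2-D1, Ciita and Dnmt1) and Hpd, called with voom, were named after their values were seen. Alternatives included another pseudocount, no filter, TPM, no variance trend, voom, a replicate block and leaving out each library. Removal of a GC and length trend, from GENCODE M21 transcripts, and voom on the non-injured libraries alone were added after seeing the data. Promoters came from RefSeq. The fits were tested on simulated data. Results of some genes are not reported here.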

Additional observations from a re-analysis of the deposited data

Results flagged for a closer look

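For 10 of the gene lists the genotype difference lay on opposite sides of WT in the injured and the non-injured kidneys, with both KO libraries of each state beyond both WT libraries. For several lists the margin without injury was very narrow. These differences between list medians were not tested, and no single gene passed the limma test of that difference. The distance between the states, injured minus non-injured on the log2 scale, was positive for immune and injury lists. It was 0.80 for macrophage and monocyte markers, 0.84 for chemokines, 0.54 for interferon-stimulated genes, 0.85 for complement and coagulation, 0.82 for tubular injury and repair and 0.44 for stromal and smooth muscle markers. It was negative for the other 4 lists, at -0.49 for fatty acid oxidation genes and PPARA targets, -0.88 for thick ascending limb markers, -0.997 for kidney genes known to be higher in females and -0.42 for the circadian clock and its output.

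The medians of the macrophage list were 0.21 and 0.75 in KO-I/R 3D and -0.34 and -0.30 in KO-NI, and those of the fatty acid oxidation list were -0.33 and -0.49 in KO-I/R 3D and 0.04 and 0.11 in KO-NI. Most of each distance lay in the injured libraries. The chemokine medians without injury, -0.08 in both libraries, lay close to WT-NI. Other lists did too. For complement and coagulation KO-NI 2 was at -0.0513, beside -0.0505 in WT-NI 1. For the circadian list KO-NI 1 was at 0.0505, beside 0.0452 in WT-NI 2. For the thick ascending limb KO-NI 2 was at 0.0739, beside 0.0690 in WT-NI 2.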

How the results depend on the processing

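For KO-NI against WT-NI, where 0 genes were called, Gm11084 was called higher with TPM (1 gene), without a variance trend (1 gene) and with the GC and length trend removed (1 gene), and Col5a2 lower with voom (1 gene) and with that trend removed (1 gene), while 4 genes were called lower without a variance trend. Leaving out each replicate gave 0 to 768 higher and 0 to 1440 lower, with calls only without KO-NI 2. For KO-NI 1 alone, the 768 higher became 445 with no filter, 248 with TPM, 138 without a variance trend, 424 with the replicate block, 214 with the GC and length trend removed and 0 with only the non-injured libraries, and 6 to 33 without a WT-NI replicate. Its 1440 lower became 466 with no filter, 538 without a variance trend, 951 with voom, 348 with the GC and length trend removed, 0 with only the non-injured libraries, and 73 to 197 without a WT-NI replicate. For KO-NI 2 alone, 255 were higher and 18 lower with no filter, 1 and 1 without a variance trend, and 1 lower with voom, and 0 without either WT-NI replicate. Other settings raised the calls of KO-NI 1 alone. More genes were called higher with voom and with library weights, and more lower with TPM and with library weights. Over both states, 5 were higher and 4 lower without a variance trend, and 1 and 8 with voom. Leaving out each replicate there gave 0 to 472 and 0 to 1172. The replicate numbers did not pair the samples (correlations of 0.0488 and 0.0585), and the replicate block called 0 genes between KO-NI and WT-NI. The mitosis median of 0.62 became 0.29 with a pseudocount of 1 and 0.46 to 0.73 without a replicate, and that of fatty acid oxidation, 0.13, became 0.047 with TPM and 0.045 to 0.15 without a replicate. The causes were not tested. Over 5853 pairs of a gene and an alternative, for the 296 genes followed, 66 gained a call and 166 changed sign without one. Apart from Col5a2 and Gm11084, calls were gained only where KO-NI 2 was left out.

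With 2 pools a group, a gene had to differ widely to be called, and genes of few reads, Gm11084 among them, rest on counting noise as well. KO-NI 1 supplies 1 of the 2 KO-NI values, so each value for both libraries includes its GC and length trend.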

Other observations

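Urothelial markers, which a kidney sample holds where it includes renal pelvis, had a median log2 difference of 0.79 over 6 genes, with 0.97 for KO-NI 1 and 0.61 for KO-NI 2. Upk3a, a plaque protein of the urothelial surface, was at 3.41 and 2.20 FPKM in KO-NI and 0.955 and 0.327 FPKM in WT-NI, while Krt20 was at 0 and 0 FPKM in KO-NI and 0.180 and 0.0741 FPKM in WT-NI. Of 8 kidney genes known to be higher in males 4 lay above both WT-NI libraries and 0 below, with a median of 0.48, of 0.69 for KO-NI 1 and 0.17 for KO-NI 2. Kap, an androgen-regulated gene of the proximal tubule, was at 23234 FPKM in KO-NI 1 and 8536 FPKM in KO-NI 2, against 9779 and 9149 FPKM in WT-NI. Slc7a13, a cystine transporter of the straight proximal tubule, was at 1.66 and 1.84 FPKM in KO-NI and 0.877 and 0.833 FPKM in WT-NI. Of 6 genes known to be higher in females 2 lay above and 0 below, with medians of 0.36 for KO-NI 1 and 0.19 for KO-NI 2. Slc7a12, an amino acid transporter of that set, was at 319 and 150 FPKM in KO-NI and 153 and 112 FPKM in WT-NI.

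Of 16 imprinted genes tested 6 lay below and 1 above both WT-NI libraries, with a median of -0.09 (-0.13 for KO-NI 1 and -0.19 for KO-NI 2). With the GC and length trend removed the median was -0.26. Then 9 of the 16 lay below and 1 above, beside 16% and 20.5% of all genes. Nnat, a paternally expressed gene, was at 0.727 and 1.47 FPKM in KO-NI and 1.79 and 2.19 FPKM in WT-NI. Gnas was at 1.10 FPKM in KO-NI 1 and 6.98 FPKM in KO-NI 2, against 6.91 and 7.70 FPKM in WT-NI, and was called in KO-NI 1 alone (limma adjusted p = 0.00319). Of 32 collagen and matrix genes 7 lay below and 1 above, with a median of -0.06 (-0.23 for KO-NI 1 and 0.07 for KO-NI 2), so the large distance of Col5a2 was not shared by the list.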
